A study of Rattus norvegicus with 10 samples.

Results

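Chemokines, interleukins and their receptors were followed in primary rat oligodendrocytes (OLs) and their progenitors (OPCs) in which miR-145-5p had been raised or blocked. The members are the 82 genes, of 16129 in the table that names the genes, whose symbol begins with Ccl, Cxcl, Cx3cl, Ccr, Cxcr or Il followed by a digit. They comprise 13 CC chemokines, 12 CXC or CX3C chemokines, 5 chemokine receptors, 19 interleukins (the antagonist Il1rn among them), 31 chains of interleukin receptors, and Il18bp and Il4i1. The count table itself holds 23487 genes, and the receptors Ccr2, Cxcr2 and Cxcr3 and the ligand Cxcl9 were not analysed here.

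The cells came from the cortices of Sprague-Dawley pups of P1 to P3. OPCs were shaken off mixed glial cultures and either kept as progenitors in FGF2 and PDGFAA or differentiated in medium with T3 and CNTF, the last itself a cytokine that signals through the product of Il6st. All transfections used 30 nM with the lipid reagent INTERFERin. OLs received the miR-145-5p mimic (miR-145), the miR-145-5p and miR-219 mimics together (miR-145+miR-219) or a scrambled mimic (miR-ctl) and were assayed after 5 days, whereas OPCs received the miR-145-5p inhibitor (anti-miR-145) or a scrambled inhibitor (anti-miR-ctl) and were assayed after 24 h. Each of the 5 groups has 2 libraries. The study describes its Ns as biological replicates, each culture coming from a single animal (it names mice, whereas these cultures are rat), and neither it nor the labels say whether libraries with the same replicate number share an animal. A treatment tag of the OL miR-145 libraries also names miR-219 while their titles name miR-145 alone, and the methods of the study speak of lentivirus for RNAseq while its results and the labels speak of mimics. The libraries are described here by their titles.

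Chemokines are small secreted proteins that attract cells through G protein-coupled receptors, and most inflammatory CC and CXC ligands are made on demand after signals that reach NF-kappaB or interferon-driven transcription. Interleukins act through receptor chains that are often shared, so that Il1rap serves the IL-1, IL-33 and IL-36 receptors and Il6st (gp130) serves the whole IL-6 family. In the central nervous system, microglia and astrocytes are the usual sources of these ligands, while OPCs carry receptors such as CXCR4, which responds to CXCL12.

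The miRNA raised in OLs or inhibited in OPCs was miR-145-5p, and the miR-145+miR-219 OLs also received miR-219. The mature miR-145-5p sequence in RefSeq (GRCr8) is shown with the seed, bases 2 to 8, in capitals. The sequence of the inhibitor given to OPCs is not shown. The miR-219 sequence is that of rno-miR-219a-5p, since the labels do not give the arm.
rno-miR-145-5p: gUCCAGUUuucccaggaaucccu
rno-miR-219a-5p: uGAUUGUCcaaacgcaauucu

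Libraries held 33505706 to 42684206 counts, so that 3 counts correspond to between 0.0681 and 0.0921 CPM. CPM are counts scaled to the library size, here after TMM scaling over the 10 libraries, and are compared between samples, not between genes, because counts also grow with transcript length. Summed over the 82 members, the level was 1215 and 1199 CPM in the OPC anti-miR-ctl libraries, 817 and 865 CPM in OPC anti-miR-145, and between 789 and 998 CPM in the OLs. Il1rap, Il6st and Cxcl14 made up 41.7% of that sum in each anti-miR-ctl library and 57.3% to 69.9% elsewhere. Without these 3, the other 79 members summed to 709 and 699.8 CPM in anti-miR-ctl, 304 and 260.04 CPM in anti-miR-145, and 270.45 to 351 CPM in the OLs. The anti-miR-ctl OPCs thus stood above all other libraries. Of the 82 members, 27 reached 1 CPM in every library and 31 reached it in none.

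**Figure D1:**
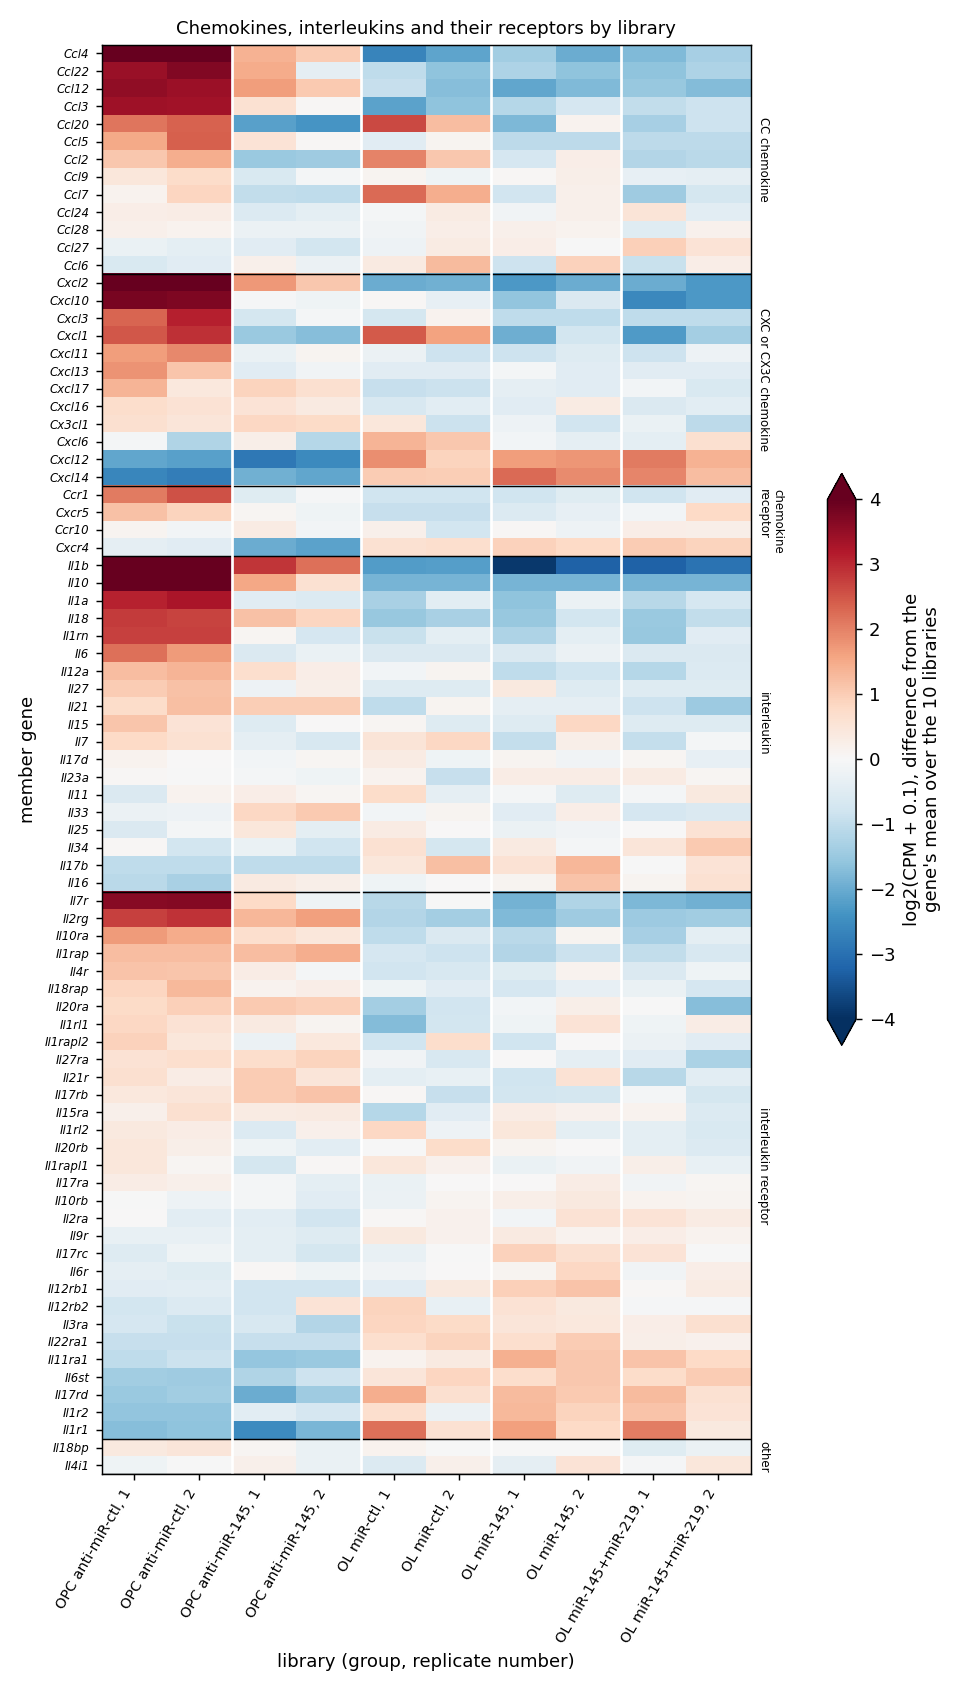
Level of 81 members (rows, grouped by role) in each of the 10 libraries (columns, with group and replicate number), as log2(CPM + 0.1) minus the gene's mean over the 10 libraries, with red above and blue below that mean. The 2 anti-miR-ctl columns are red for ligands such as Il1b, Ccl3, Ccl4, Cxcl2 and Cxcl10, whereas Cxcl12, Cxcl14, Il6st, Il17rd and Il1r1 are lower in the OPC columns than in the OL columns.

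Inhibition of miR-145 in OPCs was compared first. A broad set of inflammatory ligands had lower levels in OPCs that received the inhibitor, relative to OPCs that received the scrambled inhibitor. Among them were the IL-1 cytokines Il1a, Il1b and Il18 and the CC chemokines Ccl2, Ccl3, Ccl4, Ccl7 and Ccl20. The CXC chemokines Cxcl1, Cxcl2 and Cxcl10 were lower too. A smaller set, with Il33, Il16 and Cxcl14, was higher. For OPCs, the words fell and rose describe only this contrast. The libraries include no untransfected OPCs. Whether the inhibitor lowered a level or the scrambled inhibitor raised it was therefore not tested, and likewise for higher levels. Of the 73 members that passed the count filter (5 counts or more in 2 or more of the 4 libraries), 28 fell and 6 rose at an adjusted p under 0.05 (edgeR's quasi-likelihood test, Benjamini-Hochberg adjustment over all genes). Among the 15496 genes tested, 16% fell and 12.1% rose. The median log2 fold change was -0.63 over the members tested and 0.00 over all genes tested. Since a gene can pass the count filter through its higher group alone, the comparison was also run on all 82 members, where 27 fell and 5 rose. The members come from a table that already leaves out genes of the count table, so this run keeps any selection made there. Cxcl3, Ccr1, Il6, Cxcl11 and Cxcl13, all called lower under the filter, reached 5 counts only in anti-miR-ctl libraries. Without anti-miR-ctl replicate 2, where 64 members passed the filter, the calls numbered 22, 20 of them lower.

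CC chemokines fell in 8 of 12 cases tested and none passed the test as higher. Ccl3 (MIP-1 alpha), which recruits monocytes, stood at 132 and 129 CPM in anti-miR-ctl and at 19.1 and 12.8 CPM in anti-miR-145. Its neighbour on the chromosome, Ccl4 (MIP-1 beta), stood at 24.0 and 24.2 CPM against 2.78 and 2.11 CPM. The groups were far apart for both, with log2 fold changes of -3.02 ± 0.18 (SE) for Ccl3 and -3.29 ± 0.15 for Ccl4, and edgeR adjusted p of 9.28e-05 and 4.79e-05. Ccl2 (MCP-1), the main ligand of CCR2, went from 13.7 and 17.8 CPM to 2.23 and 2.36 CPM, a log2 fold change of -2.76 ± 0.18 (edgeR adjusted p = 0.000102). The adjacent gene Ccl7, another monocyte chemokine, went from 2.90 and 4.88 CPM to 1.29 and 1.25 CPM (log2 fold change -1.59 ± 0.30, edgeR adjusted p = 0.00789). Ccl20, the ligand of CCR6, had the steepest fall of the named CC chemokines, from 6.81 and 7.97 CPM to 0.248 and 0.204 CPM (log2 fold change -5.0 ± 0.25, edgeR adjusted p = 5.57e-05). Ccl12 and Ccl22 also fell, from 4.87 and 4.49 CPM to 1.27 and 0.772 CPM and from 3.23 and 3.84 CPM to 0.745 and 0.136 CPM. Ccl5 (RANTES) was below 1 CPM throughout, at 0.491 and 0.987 CPM against 0.199 and 0.114 CPM, and its call (edgeR adjusted p = 0.0236) was lost without anti-miR-ctl replicate 2 (adjusted p = 0.0998). Ccl6, in contrast, stood at 11.4 and 12.9 CPM in anti-miR-ctl and 20.0 and 14.8 CPM in anti-miR-145, and missed the threshold (edgeR adjusted p = 0.0520).

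Among CXC and CX3C chemokines, 6 of 12 fell and 1 rose. Cxcl10 (IP-10), an interferon-induced ligand of CXCR3, showed the smallest p of all members, at 12.3 and 11.8 CPM in anti-miR-ctl against 0.770 and 0.704 CPM in anti-miR-145 (log2 fold change -4.01 ± 0.16, edgeR adjusted p = 3.11e-05). Its neighbour Cxcl11, which binds the same receptor, went from 0.468 and 0.575 CPM to 0.0496 and 0.0908 CPM. The neutrophil chemokines Cxcl1 and Cxcl2, both ligands of CXCR2, fell as well. Cxcl1 went from 4.61 and 6.22 CPM to 0.199 and 0.159 CPM (log2 fold change -4.89 ± 0.31, edgeR adjusted p = 0.000102), and Cxcl2 from 12.9 and 14.8 CPM to 1.54 and 0.931 CPM (log2 fold change -3.48 ± 0.23, edgeR adjusted p = 0.000120). Cxcl3 and Cxcl13 were the other members of the class that fell. Cxcl13 had 16 and 7 counts in anti-miR-ctl against 0 and 1 in anti-miR-145. DESeq2 did not call it (adjusted p 0.0158 by edgeR and 0.0575 by DESeq2). Cxcl14, a chemokine without an agreed receptor, rose from 8.54 and 7.59 CPM to 13.7 and 12.3 CPM (log2 fold change 0.70 ± 0.12, edgeR adjusted p = 0.00634), a call that was lost without anti-miR-ctl replicate 2 (adjusted p = 0.0554). Cx3cl1 (fractalkine) was at 17.8 and 16.1 CPM against 20.4 and 19.6 CPM and Cxcl16 at 31.2 and 28.8 CPM against 27.8 and 24.3 CPM, and neither passed the test (edgeR adjusted p = 0.107 and 0.234).

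Promoter windows, 250 bases before to 50 after the annotated start, were read from RefSeq (GRCr8) for the called chemokine ligands of smallest p that have an entry. The 4 windows that held a motif match are shown. The window of Ccl12, which also fell, held none and is left out. Capitals mark matches on both strands to the NF-kappaB consensus (a motif of 10 letters, known by that name). They also mark the core TTCNNTTTC of the interferon-stimulated response element. The windows lie at chr14:15988816-15989115 (plus strand) for Cxcl10, chr9:91836909-91837208 (plus) for Ccl20, chr14:17479272-17479571 (minus) for Cxcl1 and chr14:17467206-17467505 (minus) for Cxcl2, and each is written 5′ to 3′ along its gene.
Cxcl10: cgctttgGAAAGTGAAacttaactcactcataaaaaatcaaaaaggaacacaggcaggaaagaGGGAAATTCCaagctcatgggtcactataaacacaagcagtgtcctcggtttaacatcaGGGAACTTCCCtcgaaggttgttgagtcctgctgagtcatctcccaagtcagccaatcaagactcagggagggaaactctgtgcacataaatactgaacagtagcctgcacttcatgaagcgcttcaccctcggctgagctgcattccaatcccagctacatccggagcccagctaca
Ccl20: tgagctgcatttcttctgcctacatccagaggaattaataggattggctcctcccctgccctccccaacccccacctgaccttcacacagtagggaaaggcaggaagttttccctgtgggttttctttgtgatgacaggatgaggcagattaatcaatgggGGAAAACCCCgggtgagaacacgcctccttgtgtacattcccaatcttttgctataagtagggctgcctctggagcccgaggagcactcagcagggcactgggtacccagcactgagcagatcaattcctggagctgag
Cxcl1: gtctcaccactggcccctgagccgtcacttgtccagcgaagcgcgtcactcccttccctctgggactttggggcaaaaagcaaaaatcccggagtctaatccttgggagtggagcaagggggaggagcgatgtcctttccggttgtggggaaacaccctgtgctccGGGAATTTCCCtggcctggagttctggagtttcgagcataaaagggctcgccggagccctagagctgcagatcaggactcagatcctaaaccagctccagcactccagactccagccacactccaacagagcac
Cxcl2: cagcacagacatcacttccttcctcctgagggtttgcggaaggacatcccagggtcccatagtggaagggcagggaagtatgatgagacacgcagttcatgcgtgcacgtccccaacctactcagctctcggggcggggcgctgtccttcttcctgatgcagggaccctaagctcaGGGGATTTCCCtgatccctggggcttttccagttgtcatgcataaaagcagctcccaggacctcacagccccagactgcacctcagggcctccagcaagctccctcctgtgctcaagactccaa

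Each of these 4 windows held an NF-kappaB match, and Cxcl10 alone also held the response element core, at its 5′ end. In Cxcl10, Cxcl1 and Cxcl2 1 stretch matched on both strands and gave overlapping matches. The window of Ccl12, the fifth by p, held neither. Over all 33469 RefSeq windows, 7.51% held the NF-kappaB match and 9.71% the response element core. The 65 members with an entry have 72 windows, of which 20 (27.8%) held the former and 10 (13.9%) the latter. By outcome in OPCs, the NF-kappaB match was present in 8 of the 20 windows of members that fell (Ccl7, Cxcl11, Il4r and Il6 beside the 4 shown), in 1 of the 6 of members that rose and in 10 of the 40 of members tested and not called. The response element core was present in 1 of 20, 1 of 6 and 6 of 40. A match of letters is not a bound site.

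Among chemokine receptors, Cxcr4, the receptor through which CXCL12 guides OPC migration, fell from 8.19 and 7.62 CPM to 2.58 and 2.34 CPM (log2 fold change -1.67 ± 0.15, edgeR adjusted p = 0.000367). Its ligand Cxcl12 was below 1 CPM in all OPC libraries, at 0.538 and 0.493 CPM against 0.273 and 0.363 CPM (edgeR adjusted p = 0.225). Ccr1, a receptor for CCL3 and CCL5, fell from 0.632 and 0.904 CPM to 0.0248 and 0.0681 CPM. Cx3cr1, the receptor of fractalkine and a microglial gene outside the symbol rule, rose from 4.33 and 2.82 CPM to 12.1 and 13.3 CPM (log2 fold change 1.83 ± 0.19, edgeR adjusted p = 0.000678).

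Of the interleukins, 7 of 15 tested fell and 2 rose. Il1b, the central inflammatory cytokine of the IL-1 family, fell from 152 and 146 CPM to 13.4 and 8.60 CPM, with a log2 fold change of -3.75 ± 0.20 (edgeR adjusted p = 6.59e-05). Il1a, its neighbour and a ligand of the same receptor, fell from 6.15 and 7.04 CPM to 0.447 and 0.409 CPM (log2 fold change -3.92 ± 0.22, edgeR adjusted p = 7.50e-05). The antagonist of that receptor, Il1rn, fell with them, from 6.90 and 6.99 CPM to 1.02 and 0.568 CPM (log2 fold change -3.12 ± 0.27, edgeR adjusted p = 0.000289). Agonists and antagonist of the IL-1 receptor were thus all lower. Il18, a caspase-1-dependent cytokine like IL-1 beta, fell from 41.6 and 39.4 CPM to 13.4 and 10.8 CPM (log2 fold change -1.73 ± 0.13, edgeR adjusted p = 0.000166). Its decoy Il18bp was at 2.76 and 2.90 CPM against 2.16 and 1.70 CPM, which missed the threshold (edgeR adjusted p = 0.109). Il10, the anti-inflammatory interleukin, went the same way as the inflammatory ones, from 7.70 and 7.86 CPM to 0.943 and 0.454 CPM. Il6 stood at 0.585 and 0.384 CPM against 0 and 0.0227 CPM (edgeR adjusted p = 0.00435), and Il7 was the other interleukin that fell. Il7 had 10 and 7 counts in anti-miR-ctl against 2 and 1 in anti-miR-145. DESeq2 did not call Il7 (adjusted p 0.0359 by edgeR and 0.225 by DESeq2).

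Il33 and Il16 were the interleukins that rose. Il33, a nuclear alarmin of the IL-1 family that oligodendroglia are known to hold, rose from 9.66 and 9.78 CPM to 20.4 and 23.5 CPM (log2 fold change 1.19 ± 0.11, edgeR adjusted p = 0.000375). Its receptor Il1rl1 (ST2) was at 1.82 and 1.51 CPM against 1.29 and 1.07 CPM (edgeR adjusted p = 0.203). Il16, a ligand of CD4 made as a large precursor, rose from 1.89 and 1.62 CPM to 5.31 and 4.84 CPM (log2 fold change 1.54 ± 0.19, edgeR adjusted p = 0.00123).

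Of the 27 interleukin receptor chains tested, 5 fell and 2 rose. Together these calls were 25.9% of the chains, near the 28.1% called among all genes tested (16% lower and 12.1% higher). Il7r fell from 8.68 and 8.82 CPM to 1.12 and 0.522 CPM, and Il2rg, the gamma chain it shares with other receptors, from 2.15 and 2.44 CPM to 0.745 and 0.954 CPM. Il10ra fell from 18.9 and 16.2 CPM to 9.14 and 7.90 CPM (log2 fold change -1.03 ± 0.13, edgeR adjusted p = 0.00160) and Il4r from 36.5 and 36.4 CPM to 20.7 and 15.7 CPM (log2 fold change -0.98 ± 0.14, edgeR adjusted p = 0.00276). Il17ra fell by a smaller step, from 48.0 and 45.5 CPM to 37.3 and 30.3 CPM (log2 fold change -0.45 ± 0.12, edgeR adjusted p = 0.0325), and without either anti-miR-ctl library it was no longer called (adjusted p = 0.107 and 0.0616). Il17rb rose from 4.61 and 4.88 CPM to 7.03 and 7.70 CPM (log2 fold change 0.65 ± 0.14, edgeR adjusted p = 0.0133), and lost its call without either anti-miR-ctl library (adjusted p = 0.128 and 0.0702). Il6st, at 64.1 and 62.4 CPM against 72.1 and 93.4 CPM, lay just inside the threshold (log2 fold change 0.40 ± 0.12, edgeR adjusted p = 0.0484) and outside it under most alternatives. Il1rap, the accessory chain shared by the IL-1 family, overlapped between the groups at 433 and 430 CPM against 426 and 499 CPM, and Il6r at 11.3 and 10.1 CPM against 15.0 and 12.6 CPM missed the threshold (edgeR adjusted p = 0.399 and 0.0681). Il1r1, the signalling receptor of IL-1, was at 2.01 and 2.16 CPM against 1.12 and 1.84 CPM (edgeR adjusted p = 0.249).

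**Figure D2:**
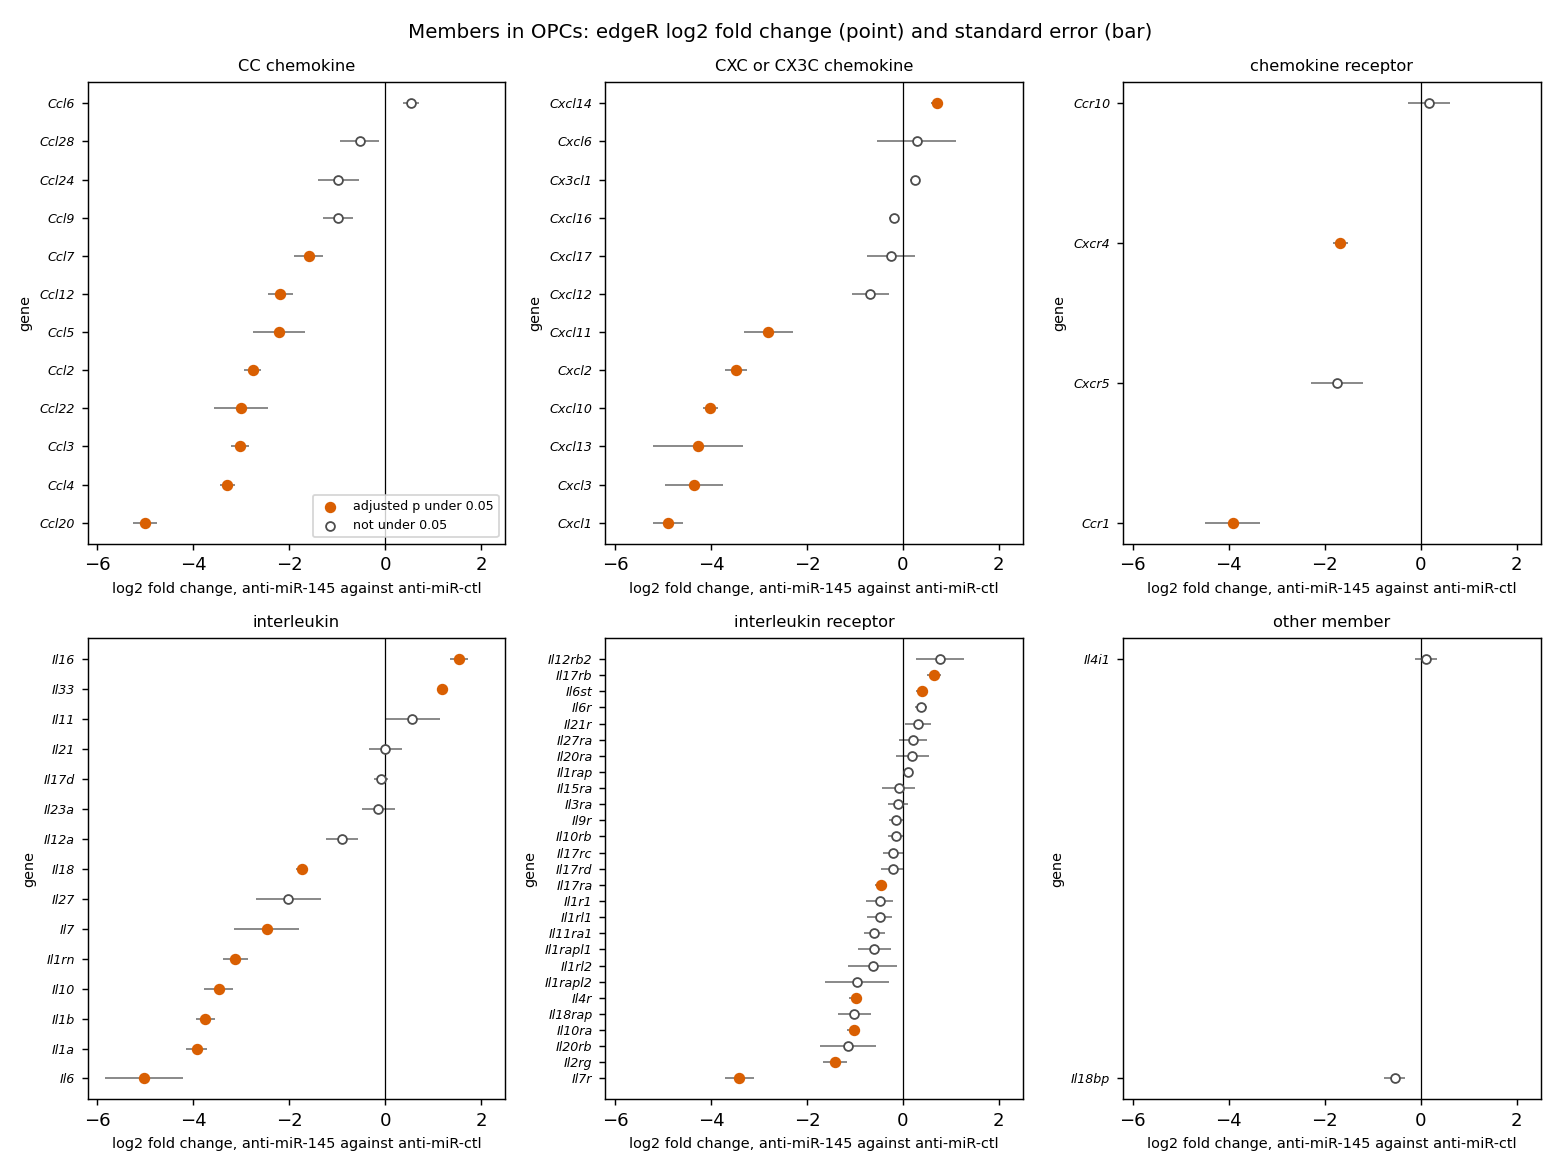
Log2 fold change of anti-miR-145 against anti-miR-ctl OPCs (x axis, edgeR, bars are standard errors) for 72 members tested (y axis), in 1 panel per role, with filled points at an adjusted p under 0.05. In the CC panel the 8 filled points lie left of 0, and the filled points right of 0 are Cxcl14, Il33, Il16, Il17rb and Il6st.

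Genes around these ligands were counted from lists. The list of interferon response genes had the lowest median: 19 of 19 tested fell, with a median log2 fold change of -2.80 against 0.00 over all genes, and a summed level of 2620 and 2460 CPM in anti-miR-ctl, 402 and 446 CPM in anti-miR-145 and 156 to 205 CPM in the OLs. Isg15, a ubiquitin-like protein induced by interferon, was at 116 and 113 CPM against 8.66 and 9.54 CPM, and Usp18, its protease, had a log2 fold change of -3.89 ± 0.10 (edgeR adjusted p = 1.24e-05). Of the interferons and their receptors, 5 of 12 were tested, none rose and 1 fell. All 5 are receptor genes (Ifnar1, Ifnar2, Ifngr1, Ifngr2 and Ifnlr1), so no interferon itself was tested. In the list of IL-1, TLR adaptor and NF-kappaB genes, which counts Map3k7 under 2 gene IDs, 13 of 28 entries fell and 3 rose (median -0.26). The smallest p there belonged to the negative regulators Irak3 and Tnfaip3, at log2 fold changes of -2.44 ± 0.16 and -1.76 ± 0.12. Of JAK, STAT and SOCS genes 5 of 20 fell and 4 rose (median -0.05), with Stat4 lower at -1.83 ± 0.10 and Socs3, a feedback inhibitor of gp130 signalling, higher at 1.33 ± 0.10. Of the gp130 cytokines, colony stimulating factors and TNF family 9 of 21 fell and 3 rose (median -0.41), with the TNF receptor chain Tnfrsf1b at -2.17 ± 0.15. That list counts Tnf under 2 gene IDs between which reads can be split, so Tnf is uncertain. Of chemokine receptors and ligands outside the symbol rule 2 of 7 fell and 2 rose, with Pf4 (CXCL4) higher at 2.57 ± 0.18 and Ccrl2 lower at -2.44 ± 0.23.

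Markers of other cell types were read beside these results. Microglia and macrophage markers were present in every library, and of 17 tested 8 rose and 8 fell (median -0.25). Their summed level was 1936 and 1784 CPM in anti-miR-ctl and 1571 and 1216 CPM in anti-miR-145. C1qb, a complement chain made by microglia, rose (1.34 ± 0.12) while the integrin chain Itgam fell (-1.58 ± 0.10), and Csf1r, the receptor of CSF1 and IL-34, stood at 324 and 282 CPM against 244 and 208 CPM. Of astrocyte markers 2 of 10 rose and 5 fell, and their sum was 820 and 787 CPM against 552 and 603 CPM. Of OPC markers 4 of 8 rose and 1 fell, of maturing OL markers 1 of 10 rose and 2 fell, and of neuronal markers 3 of 6 rose. No endothelial, lymphocyte or fibroblast and mural marker rose, and 1 of 6, 1 of 3 and 0 of 4 fell. In bulk samples fewer cells of a type and less RNA per cell cannot be told apart, and the part of these cells and of the interferon response genes in the result was not tested.

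**Figure D3:**
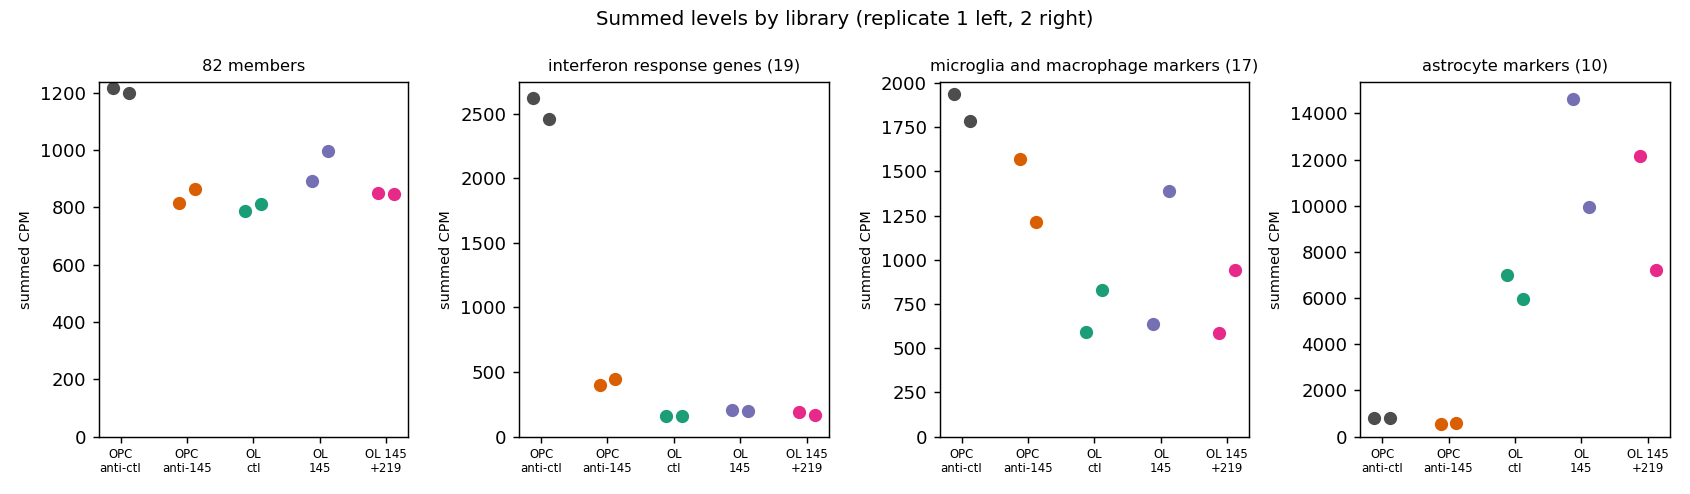
Summed CPM (y axes, from 0) of the 82 members, of 19 interferon response genes, of 17 microglia and macrophage markers and of 10 astrocyte markers in each library, with points coloured by group (x axis) and replicate 1 to the left of replicate 2. The 2 anti-miR-ctl libraries lie highest for members, interferon response genes and microglial markers, and the 6 OL libraries lie highest for astrocyte markers.

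Raising miR-145 in OLs was compared on DD5. Ccl2, Ccl7, Ccl20 and Cxcl1 were lower, and Cxcl14, Il11ra1 and Il17rc higher, in miR-145 than in miR-ctl, but no member passed edgeR's test. Of 64 members tested, 0 were called, as were 0% of the 15461 genes tested. At an unadjusted p under 0.05 edgeR listed 13 members (6 higher, 7 lower), against 13.4% of all genes. DESeq2, at an adjusted p under 0.05, called 7 members (3 higher, 4 lower) against 4.2% of all genes. The groups did not overlap for 30 members (16 higher, 14 lower), where 47.3% of all genes did not overlap. The median log2 fold change was 0.10 over the members and -0.01 over all genes.

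Cxcl14 had the smallest p of the members, at 253 and 195 CPM in miR-145 against 105 and 104 CPM in miR-ctl. Its log2 fold change was 1.10 ± 0.15, with an edgeR adjusted p of 0.158 and a DESeq2 adjusted p of 2.04e-06. Cxcl1 was at 0.115 and 0.404 CPM against 4.47 and 2.43 CPM (log2 fold change -3.68 ± 0.63, adjusted p 0.158 by edgeR and 3.99e-05 by DESeq2). Ccl2 was at 4.04 and 7.78 CPM against 26.0 and 13.7 CPM, with a log2 fold change of -1.74 ± 0.43 (adjusted p 0.206 by edgeR and 0.00363 by DESeq2). Ccl7 was at 1.50 and 3.03 CPM against 13.2 and 7.40 CPM (log2 fold change -2.17 ± 0.45, adjusted p 0.173 by edgeR and 0.000433 by DESeq2), and Ccl20 at 0.346 and 1.62 CPM against 9.62 and 3.59 CPM. For these 4 ligands the miR-ctl libraries were both above the miR-145 libraries. Il11ra1, the binding chain of the IL-11 receptor, was at 12.1 and 9.57 CPM against 4.92 and 5.74 CPM (log2 fold change 1.03 ± 0.21, adjusted p 0.173 by edgeR and 0.00831 by DESeq2). Il17rc, a chain of the IL-17 receptor, was at 8.31 and 6.92 CPM against 3.54 and 4.30 CPM (log2 fold change 0.96 ± 0.23, adjusted p 0.197 by edgeR and 0.0347 by DESeq2).

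These values were read beside markers. Of the 17 microglia and macrophage markers 16 had higher values in miR-145 than in miR-ctl (median log2 fold change 0.60, edgeR called 0, 4 at an unadjusted p under 0.05), and of the 10 astrocyte markers 10 had higher values (median 0.88, edgeR called 0, 8 at an unadjusted p under 0.05). Microglial markers summed to 634 and 1391 CPM in miR-145 against 592 and 830 CPM in miR-ctl, and overlapped. Astrocyte markers summed to 14642 and 9949 CPM against 6987 and 5959 CPM, and Gfap, their intermediate filament, alone reached 4179 CPM or more in every OL library. Fibroblast and mural markers, of which 5 were tested, had 5 higher values (median 2.57, edgeR called 0, 5 at an unadjusted p under 0.05). Of the other lists, edgeR called 0 genes as well. Maturing OL markers summed to 15559 CPM or more in every OL library against at most 1324 CPM in OPCs. The part of these cells in the chemokine values was not tested.

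With miR-219 added to miR-145, Ccl2, Ccl7, Ccl20 and Cxcl1 had values below those of the miR-ctl libraries, which both comparisons share. Of 62 members tested edgeR called 0, and 0% of 15436 genes. It listed 12 members (5 higher, 7 lower) at an unadjusted p under 0.05 against 6.19% of all genes, and DESeq2 called 4, all lower, against 0.687% of all genes. The groups did not overlap for 30 members (11 higher, 19 lower), as for 36.7% of all genes. Ccl2 was at 2.79 and 3.00 CPM in miR-145+miR-219 against the 26.0 and 13.7 CPM of miR-ctl (log2 fold change -2.78 ± 0.35, adjusted p 0.777 by edgeR and 1.90e-10 by DESeq2). Cxcl1 was at 0.0741 and 0.225 CPM (log2 fold change -4.53 ± 0.62, adjusted p 0.777 by edgeR and 3.75e-07 by DESeq2) and Ccl7 at 0.914 and 1.60 CPM (log2 fold change -3.04 ± 0.43, adjusted p 0.777 by edgeR and 3.28e-08 by DESeq2). Ccl20, the other of the 4 that DESeq2 called, was at 0.519 and 0.786 CPM. The 3 members of smallest p with higher values were Ccl3 at 6.23 and 6.90 CPM against 2.74 and 4.02 CPM (log2 fold change 0.97 ± 0.26), Il11ra1 at 10.0 and 7.91 CPM (0.75 ± 0.20) and Il1rl1 at 0.865 and 1.23 CPM against 0.226 and 0.553 CPM (1.45 ± 0.54), each with an edgeR adjusted p of 0.800 or 0.801. Beside these values, 11 of 17 microglia and macrophage markers (median log2 fold change 0.27) and 10 of 10 astrocyte markers (median 0.55) had higher values than in miR-ctl, with 0 called by edgeR and 1 and 4 at an unadjusted p under 0.05.

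The groups with and without miR-219 were set against each other directly. Of 63 members edgeR called 0, against 0% of 15501 genes, and listed 2 at an unadjusted p under 0.05, both lower with miR-219, against 1.47% of all genes. DESeq2 called 0 members, against 0.0581% of all genes. The groups did not overlap for 20 members, 16 of them lower with miR-219, against 24.8% of all genes. Ccl2 had a log2 fold change of -1.04 ± 0.37, Il33 of -0.59 ± 0.29 (7.11 and 7.47 CPM against 8.16 and 13.6 CPM) and Il17rc of -0.51 ± 0.25 (edgeR adjusted p = 1.00 for each). In the same comparison 0 of 17 microglia and macrophage markers (median -0.48) and 0 of 10 astrocyte markers (median -0.31) had higher values with miR-219, with 0 called by edgeR and 0 at an unadjusted p under 0.05. The part of these cells in the members' values was not tested.

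**Figure D4:**
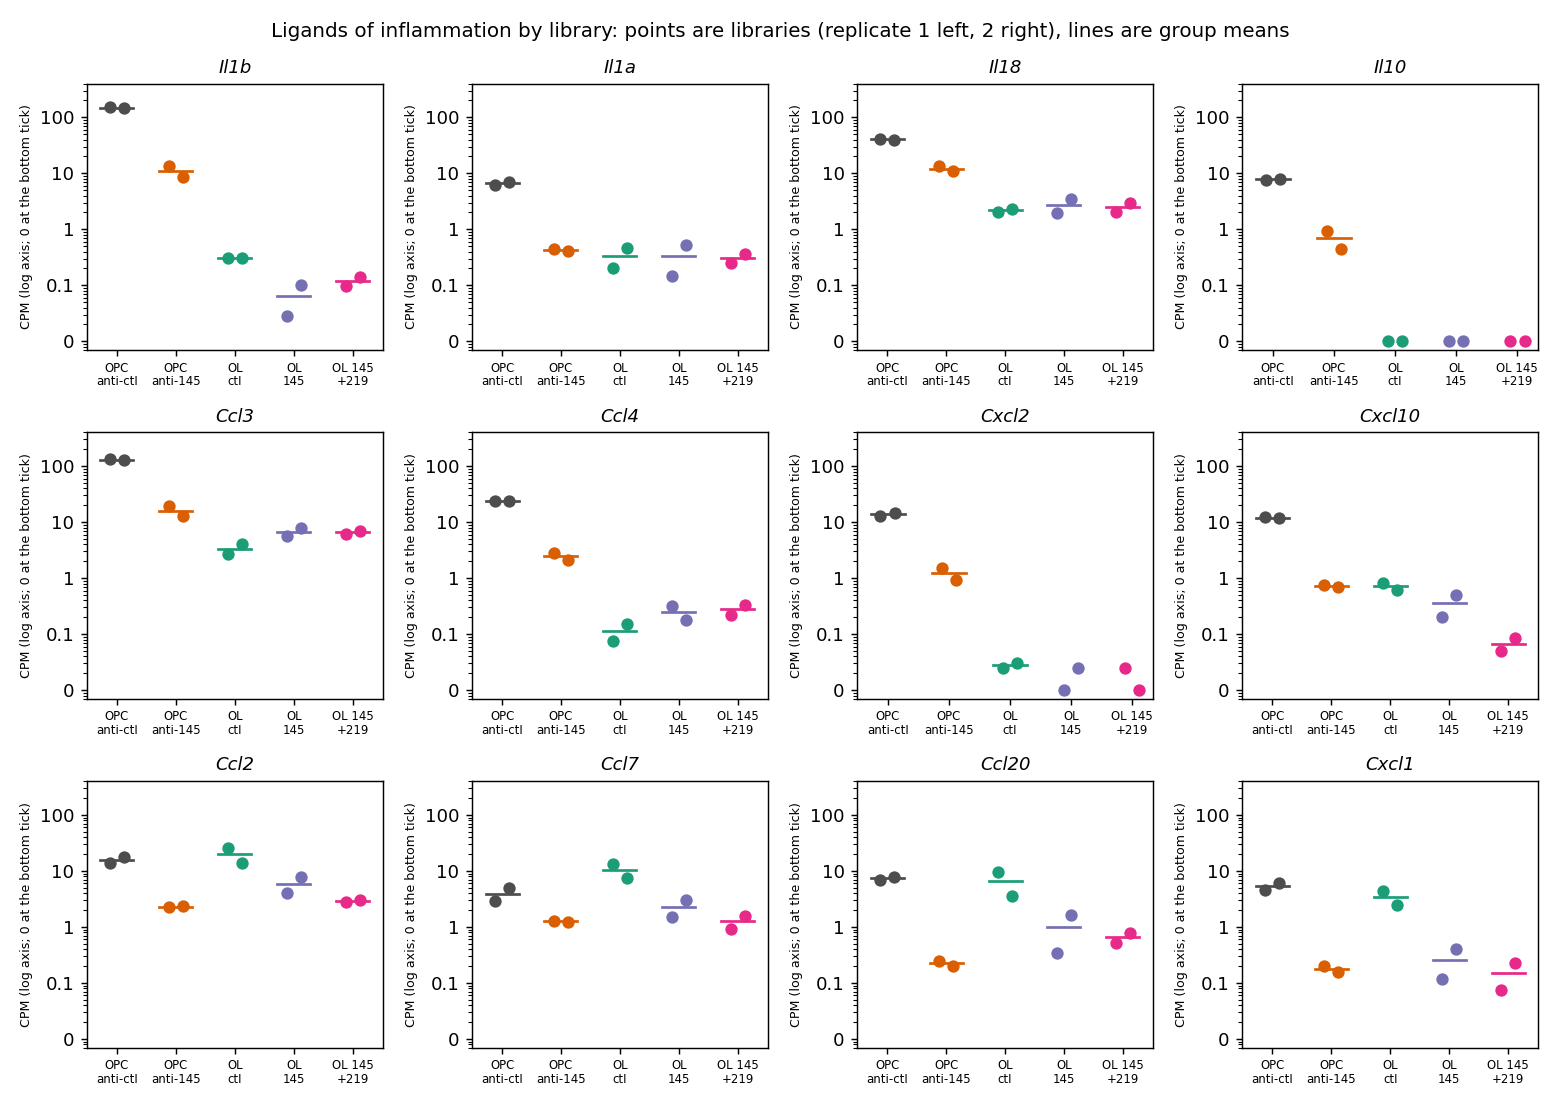
CPM (y axes, logarithmic, with 0 drawn at the lowest tick) of 12 ligands in the 10 libraries, with a point per library, coloured by group (x axis) and replicate 1 to the left of replicate 2, and a line at the mean of groups without a 0. Il1b, Il18, Il10, Ccl3, Ccl4 and Cxcl2 are highest in anti-miR-ctl OPCs and low in all OLs, whereas Ccl2, Ccl7, Ccl20 and Cxcl1 are lower in each treated group than in its own control group.

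Ccl2, Ccl7, Ccl20 and Cxcl1 had lower values than their own controls both where miR-145 was inhibited in OPCs and where it was raised in OLs. Those comparisons share no library. The 4 genes were grouped after their values were seen, and the share of all genes lower in both comparisons was not counted. In OPCs edgeR called the 4 genes lower, with log2 fold changes of -2.76, -1.59, -5.0 and -4.89, and in OLs given miR-145 the values were -1.74, -2.17, -2.73 and -3.68, none of them called by edgeR and all called by DESeq2. Cxcl10 and Il1b, called lower in OPCs, also had lower values with miR-145 in OLs, at 0.202 and 0.505 CPM against 0.829 and 0.614 CPM and at 0.0288 and 0.101 CPM against 0.302 and 0.307 CPM, and did not pass edgeR's test (adjusted p = 0.484 and 0.317). Il1b rested there on 1 and 4 counts against 12 and 10. Members called lower in OPCs went both ways in OLs. Ccl3 had higher values in the miR-145 libraries (5.62 and 7.75 CPM) than in the OL miR-ctl libraries (2.74 and 4.02 CPM). Log2 fold changes were also positive for Ccl4, Cxcr4, Il4r, Il1a, Il18, Il10ra and Il17ra. They were negative for Il1rn, Il7 and Il7r. None of these was called by edgeR.

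The control groups of the cell stages were compared last, with OL miR-ctl set against OPC anti-miR-ctl. They differ in stage, medium, time after transfection and kind of control oligonucleotide, which cannot be told apart. Of 77 members tested, 16 were higher in OLs and 35 lower (edgeR), against 28.8% and 28.7% of 15721 genes, and the median log2 fold change was -0.65 over the members and 0.01 over all genes. Without anti-miR-ctl replicate 1 or replicate 2, where 62 members passed the filter, the calls numbered 22 and 23. Interferon response genes were lower in OLs for 19 of 19 (median -5.58). Of the microglial markers 2 of 17 were higher and 9 lower, and of the astrocyte markers 9 of 10 were higher.

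Ligands were called in both directions. Of 12 CC chemokines tested 5 were lower and 2 higher in OLs, of 12 CXC or CX3C chemokines 7 and 3, and of 17 interleukins 8 and 2. Il1b was at 0.302 and 0.307 CPM in OL miR-ctl against 152 and 146 CPM in OPC anti-miR-ctl (log2 fold change -8.93 ± 0.12, edgeR adjusted p = 3.07e-05), and Il18 at 2.01 and 2.33 CPM against 41.6 and 39.4 CPM (log2 fold change -4.23 ± 0.13, edgeR adjusted p = 4.55e-05). Ccl3 and Ccl4 had log2 fold changes of -5.29 ± 0.19 and -7.72 ± 0.24. Cxcl2 had 1 count in each OL miR-ctl library (0.0251 and 0.0307 CPM) against 12.9 and 14.8 CPM. Il33 was at 10.4 and 12.3 CPM against 9.66 and 9.78 CPM and missed the threshold (edgeR adjusted p = 0.234). Il10 had 0 counts in every OL library and was at least 92.9-fold lower in OL miR-ctl, with 3 counts per library as the floor. Ccr1 and Il6, also at 0 in OL miR-ctl, were at least 9.17-fold and 5.78-fold lower. Ccl2, Ccl20 and Cxcl1 had OL minus OPC log2 differences of 0.33 ± 0.32, -0.16 ± 0.45 and -0.65 ± 0.34 that missed the threshold (edgeR adjusted p = 0.424, 0.789 and 0.161). Ccl7 was higher in OLs, at 13.2 and 7.40 CPM against 2.90 and 4.88 CPM (log2 fold change 1.41 ± 0.38, edgeR adjusted p = 0.0259, and 0.140 without anti-miR-ctl replicate 1). Ccl6 was higher too, at 22.4 and 41.9 CPM against 11.4 and 12.9 CPM (log2 fold change 1.40 ± 0.31, edgeR adjusted p = 0.0133), and lost its call without either anti-miR-ctl library (adjusted p = 0.0934 and 0.0706). Il16 and Il17b were the interleukins called higher.

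Receptors also went both ways, with 8 of 29 interleukin receptor chains higher in OLs and 12 lower, and 1 of 5 chemokine receptors higher and 3 lower. Among all genes tested, 28.8% were called higher and 28.7% lower. Among ligands, Cxcl14 was at 105 and 104 CPM in OL miR-ctl against 8.54 and 7.59 CPM in OPC anti-miR-ctl (log2 fold change 3.70 ± 0.10, edgeR adjusted p = 3.85e-05). Cxcl12 was at 9.52 and 4.82 CPM against 0.538 and 0.493 CPM (3.79 ± 0.42, edgeR adjusted p = 0.00130), and its receptor Cxcr4 at 16.2 and 17 CPM against 8.19 and 7.62 CPM (1.06 ± 0.12, edgeR adjusted p = 0.00125). Ligand and receptor were thus both higher in the OL cultures. Il6st was at 233 and 303 CPM against 64.1 and 62.4 CPM (2.08 ± 0.14, edgeR adjusted p = 0.000278), Il3ra at 18.8 and 17.7 CPM against 6.46 and 5.51 CPM (1.60 ± 0.13, edgeR adjusted p = 0.000500) and Il17rd, an inhibitor of FGF signalling as well as an IL-17 receptor relative, at 23.2 and 13.2 CPM against 2.97 and 3.15 CPM (2.57 ± 0.30, edgeR adjusted p = 0.00158). The chains of the IL-1 receptor parted. Il1r1 was at 31.6 and 10.5 CPM against 2.01 and 2.16 CPM (3.33 ± 0.57, edgeR adjusted p = 0.00559), while its partner Il1rap was at 114 and 102 CPM against 433 and 430 CPM (-2.0 ± 0.09, edgeR adjusted p = 8.39e-05). The decoy receptor Il1r2 had 0 counts in the anti-miR-ctl libraries and 0.377 and 0.154 CPM in OL miR-ctl, where it was at least 3.48-fold higher. Il34 lay between 0.0227 and 0.337 CPM in the 10 libraries, while its receptor Csf1r ran from 53.9 to 324 CPM.

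**Figure D5:**
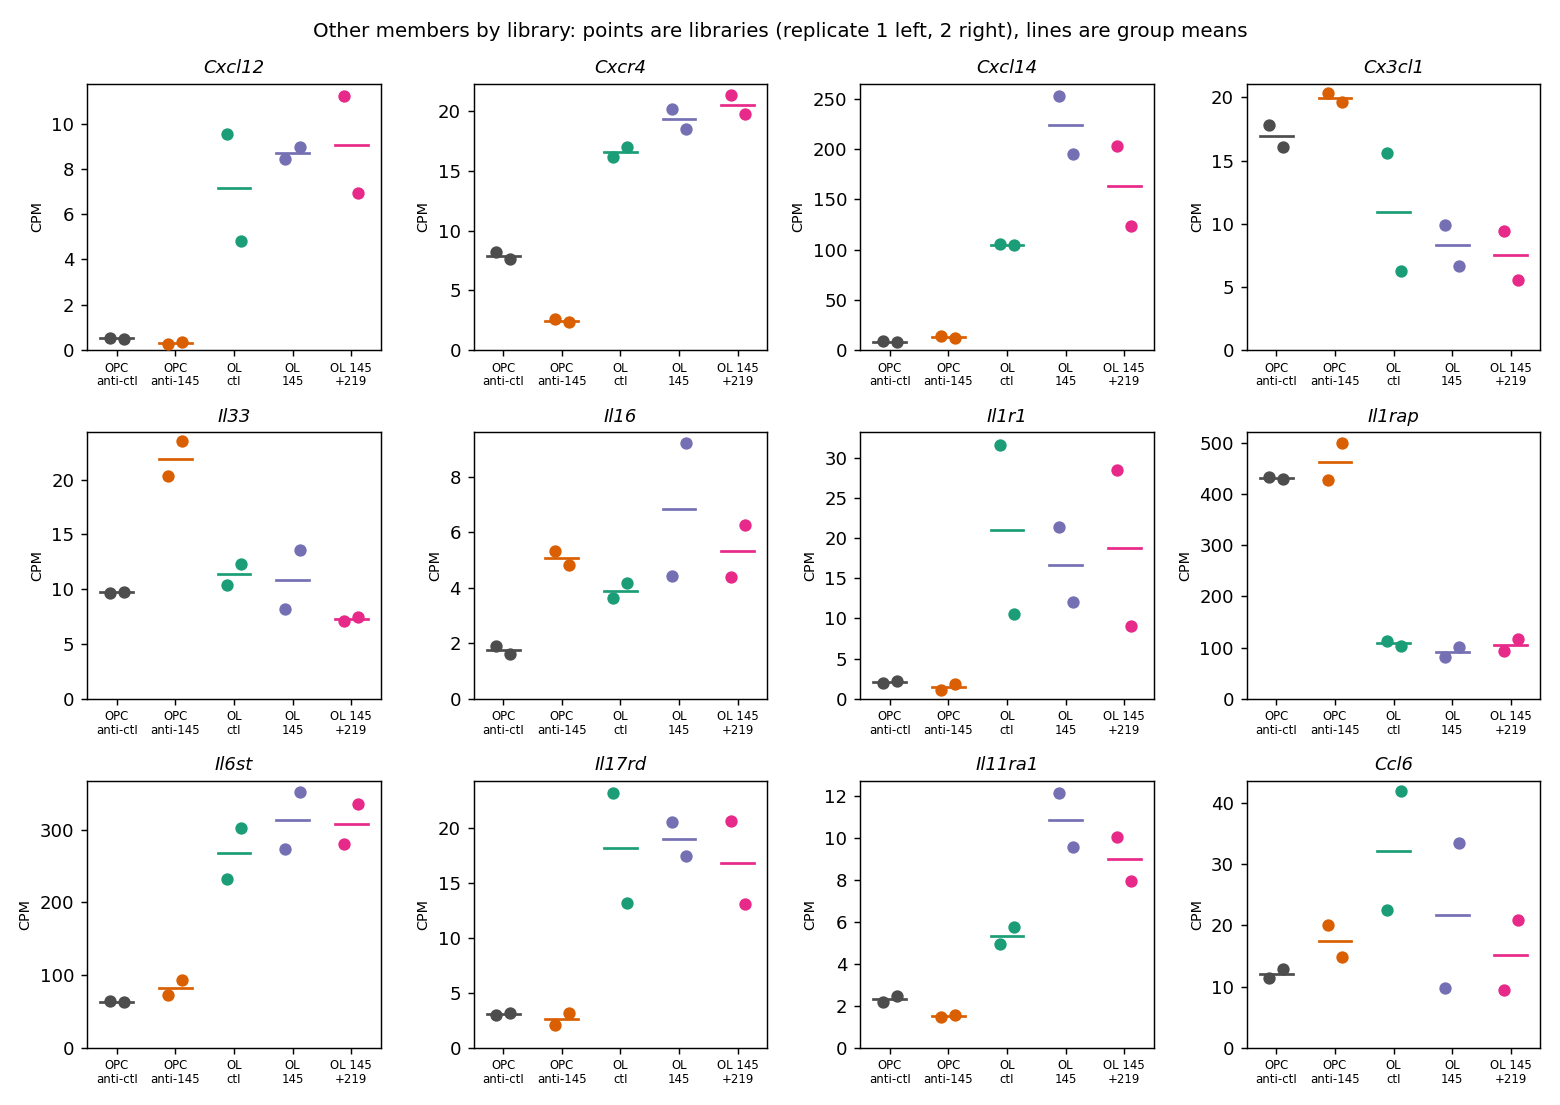
CPM (y axes, linear from 0) of 12 other members in the 10 libraries, with a point per library, coloured by group (x axis) and replicate 1 to the left of replicate 2, and a line at the group mean. Cxcl12, Cxcr4, Cxcl14, Il6st, Il17rd, Il11ra1 and Il1r1 are higher in OLs than in OPCs, Il1rap is lower, and Il1r1 is higher in replicate 1 than in replicate 2 of each OL group.

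Several members were ordered by replicate number in all 3 OL groups, and the share of all genes so ordered was not counted. Il1r1 was at 28.4, 21.3 and 31.6 CPM in replicate 1 of miR-145+miR-219, miR-145 and miR-ctl and at 9.09, 12 and 10.5 CPM in replicate 2. Cx3cl1 was at 9.44, 9.89 and 15.6 CPM in replicate 1 and 5.56, 6.67 and 6.26 CPM in replicate 2. Ccl6, in contrast, was at 9.46, 9.81 and 22.4 CPM in replicate 1 and 20.9, 33.5 and 41.9 CPM in replicate 2, and microglial markers likewise summed to 586, 634 and 592 CPM in replicate 1 and 940, 1391 and 830 CPM in replicate 2. Astrocyte markers, in the same order of groups, summed to 12174, 14642 and 6987 CPM in replicate 1 and 7216, 9949 and 5959 CPM in replicate 2. Maturing OL markers summed to 19419, 15559 and 16890 CPM in replicate 1 and 34110, 24891 and 31042 CPM in replicate 2. The part of these cells in the Ccl6, Cx3cl1 and Il1r1 values was not tested.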

How the data were processed

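RNA of 10 libraries, 2 in each of 5 groups, was analysed. The authors assigned reads from a stranded mRNA kit to GENCODE Rnor6.0 transcripts with Salmon 0.12.0, imported them with tximport, and deposited gene-level estimated counts without normalization. Values were rounded, since 16.0% to 17.5% of those in a library had a fractional part. A second deposited table holds the authors' DESeq2 comparison (mean, log2 fold change, error, p-values), of which only gene IDs and symbols were used.

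The 5 comparisons were fitted separately, each to the 4 libraries concerned, in edgeR 4.0.16 (R 4.3.3, TMM, glmQLFit and glmQLFTest). Genes needed 5 counts or more in 2 or more of them, with Benjamini-Hochberg adjustment over all of them. Standard errors are the log2 fold change divided by the square root of F. DESeq2 1.42.0, other scalings, filters and fits, a term for the replicate number and leaving out each library were alternatives. Named genes were the called members (if over 12, the 8 higher and 8 lower of smallest p) or, with no call, the 3 higher and 3 lower of smallest p at 1 CPM or more without overlap, members with a group mean of at least 10 CPM, and set ligand and receptor pairs. Others named, such as Ccl12, Ccl22, Il7r, Il2rg and Ccl20 in OLs, were chosen after their values were seen. Promoter windows and miRNAs came from RefSeq (GRCr8), matched by Entrez ID for 82 of 82 members, 65 with a window. The 5 receptors matched by both the interleukin and the receptor pattern (Il4r, Il6r, Il7r, Il9r and Il21r) were counted as receptors. The members and lists were chosen with earlier results of these data known. The functions were tested on simulated data. Figures used matplotlib 3.10.9. The values of 1 member are not reported here. Protein sequences and levels of mature miRNA were not analysed here.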

Additional observations from a re-analysis of the deposited data

How the results depend on the processing

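Counts of called members depended on the tool in the OLs. For miR-145 against miR-ctl edgeR called 0, DESeq2 7, a fit of all 5 groups 1 (Cxcl1, adjusted p = 0.0497) and a fit with a replicate block 15. For miR-145+miR-219 against miR-ctl the counts were 0, 4 with DESeq2 and 5 with the block, and for miR-145+miR-219 against miR-145 they were 0 and 1 with the block. Leaving out any library gave 0 in these 3 comparisons. In OPCs the count of 34 ran from 22 to 40 with 1 library left out, and it was 35 with the block, of which 33 were the same genes. For OL miR-ctl against OPC anti-miR-ctl the count of 51 ran from 22 to 53 with 1 library left out, and it was 48 with the block.

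Neither the labels nor the methods say that replicate numbers pair the samples. Deviations of same-numbered libraries from their group means correlated, across genes, at 0.23, 0.23 and 0.42 in the OL comparisons, -0.07 in OPCs and 0.03 between the controls, and with 2 pairs the numbers were not taken as pairs.

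Log2 fold changes were followed under the alternatives only for genes picked by the naming rule, and none of these changed sign. Others printed here, such as those of Ccl2, Ccl20 and Cxcl1 between the controls, were not followed. In OPCs Il6st lost its call under 6 alternatives and without either anti-miR-ctl library, and Il17ra, Il17rb, Cxcl14 and Ccl5 lost theirs under the 1.5-fold threshold test and in the fit of all 5 groups, where Il10ra did too (adjusted p = 0.118). With 1 library left out the lone library of a group is assumed to vary like the other group. Depth limits members under 1 CPM, and 2 libraries a group limit every comparison.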
